A study of Mus musculus with 8 samples.

Results

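The interferon response and MHC class I module was examined in RNA sequencing of S89G-DMP1 and WT mouse cells. It holds 38 genes, taken from a list of symbols and matched to mouse Ensembl gene identifiers. The list names genes and sets no threshold on a measured value, but it was chosen with earlier results of these data known. Shares of the members set beside shares of all genes are therefore description. All 38 were found in both count tables, among 47729 genes of the neural stem cell (NSC) table and 40562 genes of the astrocyte table. The genes were placed in 10 groups by role, from the class I chains themselves to the proteins that interferon induces against viruses.

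The study asked what the S89G mutation of dentin matrix protein 1, which removes a glycosylation site of this secreted matrix protein, changes in glial cells and their precursors. The astrocyte cultures came from cortex and grew in DMEM with 10% FBS, with 1 WT and 1 S89G-DMP1 library. The NSCs came from the sub-ventricular zone and grew as neurospheres in DMEM/F12 with N2 supplement, with 3 WT and 3 S89G-DMP1 libraries. All mice were C57BL/6 and, per the labels, 10 weeks old, while the methods give 3 months and both sexes for the astrocyte donors. The S89G-DMP1 mice were a knock-in line made from embryonic stem cells, which was crossed with mice carrying FLP recombinase to remove the selection cassette, and wild-type C57BL/6 mice served as WT. Nothing in the labels says that the NSC triplicates were separate mice or cultures, so p-values measure the spread between these libraries, which may be technical. The labels give no interferon treatment for any sample.

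Interferons are secreted when a cell senses viral nucleic acid or when lymphocytes are activated. Their receptors act through JAK kinases and STAT proteins, which enter the nucleus with interferon regulatory factors and switch on a large set of genes. These include antiviral proteins and the machinery that cuts proteins into peptides, carries the peptides into the endoplasmic reticulum and displays them on MHC class I molecules to cytotoxic T cells. In brain, class I molecules are low in resting cells, microglia are the readiest responders, and astrocytes and vascular cells respond to added interferon.

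The NSC libraries held 2354615 to 2588130 counts each, and the astrocyte libraries 14008670 (WT) and 13016924 (S89G-DMP1). Dmp1, the mutated gene, had 18, 21 and 16 counts in the WT NSCs and 6, 3 and 5 in the S89G-DMP1 NSCs, but 2 counts in the WT and 119 in the S89G-DMP1 astrocyte library. A knock-in need not lower its own transcript, so these counts do not check the labels. The library labelled WT astrocytes held few astrocyte transcripts, with 90 counts of Gfap, 8 of Aqp4 and 8 of Slc1a3, against 901, 4051 and 3877 in the S89G-DMP1 library. Summed over 10 astrocyte markers the levels were 160 CPM (counts scaled to the TMM-adjusted library total) and 1169 CPM, and over 8 fibroblast markers they were 7533 CPM and 2056 CPM. Xist had 12172 counts in the WT and 74 in the S89G-DMP1 astrocyte library, while the Y-linked Ddx3y had 0 and 1277, so sex and genotype cannot be told apart in this pair. In the NSCs both genes were counted in all 6 libraries.

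Many interferon-induced genes carry an interferon-stimulated response element, the site of the STAT and interferon regulatory factor complexes, or a gamma-activated site. The letters of the first, GAAANNGAAA or TTTCNNTTTC on the other strand, and of the second, TTCNNNGAA, which reads the same on both strands, were searched from 250 bases before to 50 bases after RefSeq gene starts (GRCm38.p6). A window was available for 32 of the 38 members, and none for Tap2, Nlrc5, Usp18, Ifi27, Parp14 and Rtp4. The response element letters stood in 17 of the 32 (53.1%), against 3.99% of 27025 genes, and the gamma-activated letters in 9 (28.1%), against 9.55%. The stretches below show, for the members that were lower by 2-fold or more in S89G-DMP1 astrocytes, where those letters lie upstream of the start. Capitals mark the response element letters, or for Irf1 the gamma-activated letters, sequences run 5′ to 3′ on the gene's strand, and overlapping matches appear as 1 run of capitals.
B2m (chr2:122147528-122147577, plus strand): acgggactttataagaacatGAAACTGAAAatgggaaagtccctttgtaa
H2-T23 (chr17:36032796-36032845, minus strand): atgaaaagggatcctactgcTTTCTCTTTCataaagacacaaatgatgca
Ifit3 (chr19:34583353-34583436, plus strand): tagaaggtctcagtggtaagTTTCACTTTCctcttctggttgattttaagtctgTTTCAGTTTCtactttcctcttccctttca
Gbp2 (chr3:142620584-142620633, plus strand): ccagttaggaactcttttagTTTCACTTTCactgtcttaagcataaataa
Gbp3 (chr3:142559979-142560034, plus strand): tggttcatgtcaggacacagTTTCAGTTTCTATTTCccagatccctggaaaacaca
Irgm1 (chr11:48871421-48871470, minus strand): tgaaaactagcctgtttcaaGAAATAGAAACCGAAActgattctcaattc
Irf1, gamma-activated letters (chr11:53769904-53769952, plus strand): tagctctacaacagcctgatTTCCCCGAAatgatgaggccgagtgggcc

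For comparison, the next 3 members hold the response element letters and lay within 2-fold in the astrocyte pair. In Igtp a gamma-activated match in the same stretch is left in lower case. The response element letters thus stood before genes with unequal differences.
Isg15 (chr4:156200855-156200916, minus strand): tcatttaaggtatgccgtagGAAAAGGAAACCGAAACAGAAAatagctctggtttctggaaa
Gbp7 (chr3:142530263-142530312, plus strand): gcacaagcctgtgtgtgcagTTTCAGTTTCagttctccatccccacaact
Igtp (chr11:58199502-58199551, plus strand): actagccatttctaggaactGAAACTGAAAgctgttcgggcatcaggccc

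Of the 10 members lower by 2-fold or more in S89G-DMP1 astrocytes, 9 had a window, and 6 of these held the response element letters, Irf1 held the gamma-activated letters, and H2-K1 and H2-D1 held neither. Of the 27 members within 2-fold, 23 had a window and 11 held the response element letters. A match is a description of letters and was not tested as a binding site.

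In the astrocyte pair the module was mostly lower in the S89G-DMP1 library. Of the 38 members, 10 (26.3%) were lower by 2-fold or more, namely B2m, H2-K1, H2-D1, H2-T23, Tap2, Irf1, Ifit3, Gbp2, Gbp3 and Irgm1, against 12.8% of the 15680 genes that reached 10 counts in 1 of the libraries or both. Nlrc5 alone (2.63%) was at least 2-fold higher, against 17.3% of all genes. On the log2 scale the S89G-DMP1 to WT ratio had a median of -0.49 over the members and 0.01 over all genes. In all, 31 members were lower and 7 higher, and 26 intervals for counting error lay below 0, 4 above it and 8 across it. With 1 library per genotype these ratios have no replicate check, and the intervals printed here (95%, exact binomial) cover counting error only. In a bulk library, fewer cells of a type and less RNA per cell cannot be told apart.

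The size of these counts depends on the scale. Without the TMM factors, on library size alone, 6 members were at least 2-fold lower and 2 higher, 24 lay below 0 and 14 above it, and the median was -0.20, with 9.66% of all genes at least 2-fold lower and 22.2% higher. The median of all genes then stood at 0.30, and relative to that median gene 10 members were at least 2-fold lower and 1 higher on either scale. That match follows from the arithmetic, since a change of scale moves all ratios by nearly the same amount. It is therefore no check on the 10. The members that changed sign with the scale were Tap1, Stat2, Irf7, Trim25, Oas1a, Gbp7 and Xaf1, all close to 0 on the TMM scale.

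**Figure D1:**
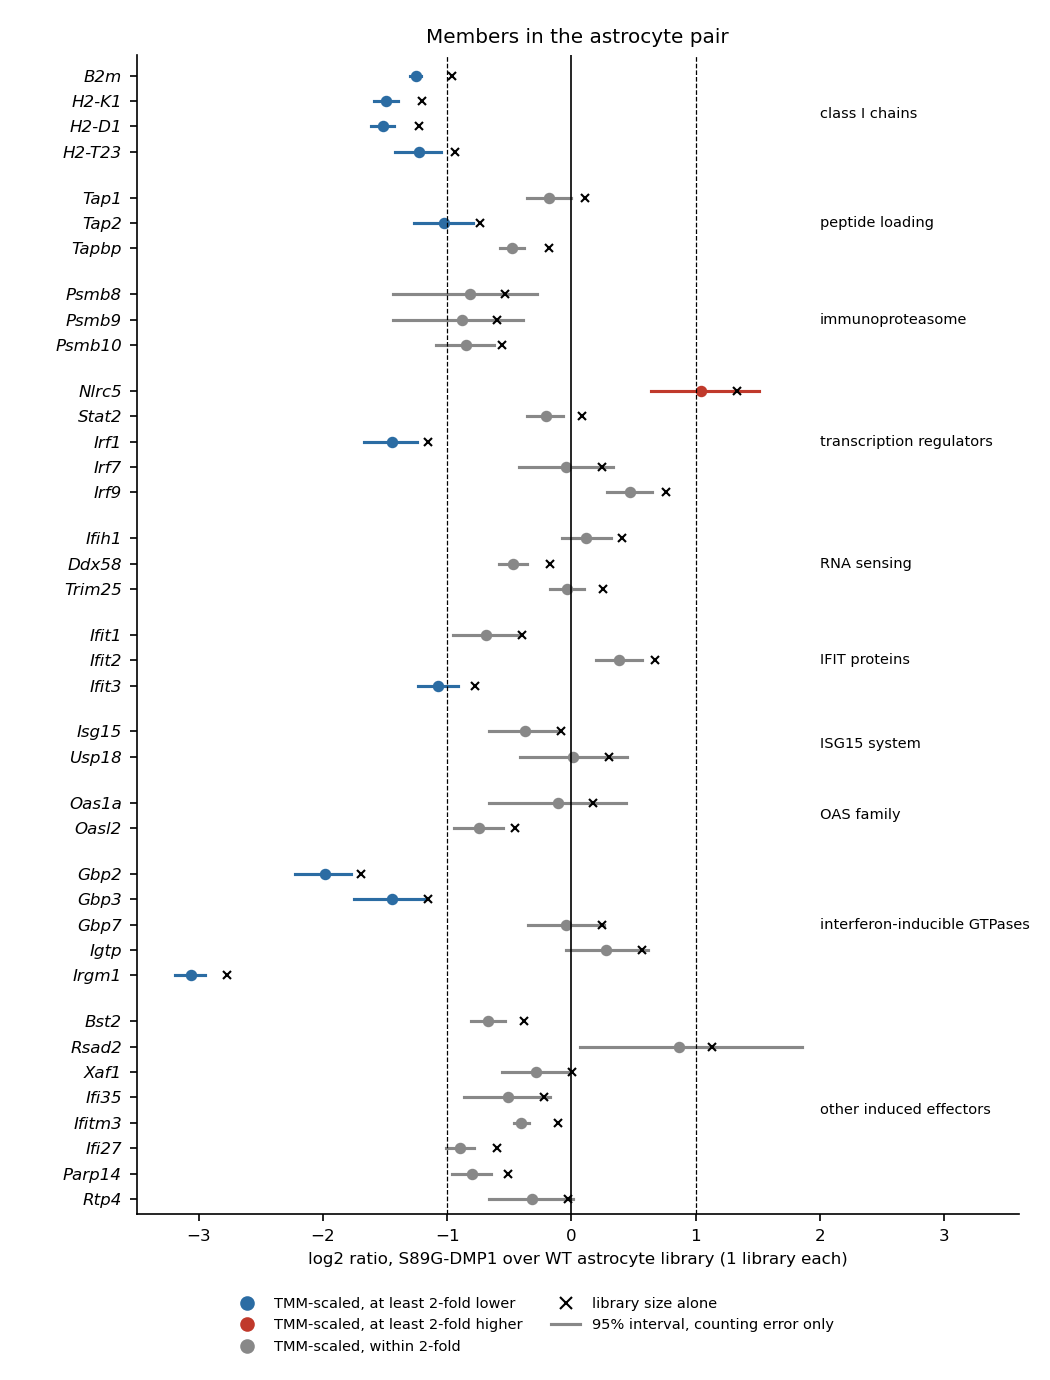
Log2 ratio of S89G-DMP1 to WT for the 38 members in the astrocyte pair, 1 library each, grouped by role. Circles are TMM-scaled ratios with 95% intervals for counting error, crosses are ratios on library size alone, and dashed lines mark 2-fold. The 4 class I chains, Irf1, Gbp2, Gbp3 and Irgm1 lie left of the 2-fold line on the TMM scale, and Nlrc5 lies right of it.

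All 4 class I chains were lower by more than 2-fold in S89G-DMP1 astrocytes. B2m, the light chain that every class I molecule needs to reach the surface, stood at 1046 CPM in the WT and 439 CPM in the S89G-DMP1 library (13240 and 6327 counts), a log2 ratio of -1.25 (interval -1.29 to -1.21). H2-K1, a classical heavy chain on chromosome 17, stood at 228 CPM and 81.2 CPM, a log2 ratio of -1.49 (-1.59 to -1.39). H2-D1, the other classical heavy chain, stood at 274 CPM and 95.7 CPM, a log2 ratio of -1.52 (-1.61 to -1.43). Both classical chains were thus lower by close to the same factor, 2.81-fold and 2.86-fold. H2-T23, a non-classical chain that presents leader peptides of other class I chains to natural killer cells, stood at 56.3 CPM and 23.95 CPM, 2.34-fold lower. On library size alone B2m and H2-T23 were at -0.96 and -0.94, short of 2-fold, and H2-K1 and H2-D1 at -1.198 and -1.23. Class I heavy chain genes are close copies of each other, and how reads that match several of them were counted is not given in the sources used here, so the split of reads among them is uncertain.

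The peptide loading genes were less uniform. Tap1 and Tap2 encode the subunits of the transporter that moves peptides into the endoplasmic reticulum. Tap2 stood at 32.9 CPM in the WT and 16.1 CPM in the S89G-DMP1 library, a log2 ratio of -1.02 (-1.27 to -0.79). On library size alone Tap2 was at -0.73, short of 2-fold. Tap1 stood at 41.5 CPM and 36.7 CPM, a log2 ratio of -0.18 (-0.36 to -0.00345) that turned to 0.11 on library size alone. Tapbp, which encodes tapasin, the protein that holds the transporter next to class I chains, was at -0.47 (-0.57 to -0.38). The transporter subunits therefore had ratios whose counting intervals did not overlap. The immunoproteasome subunits Psmb8, Psmb9 and Psmb10, which replace the standard catalytic subunits and favour peptides that fit class I, had log2 ratios of -0.82, -0.88 and -0.85, all within 2-fold. Psmb8 and Psmb9 rested on 68 and 84 counts in the WT library and 43 and 51 in the S89G-DMP1 library. Tap1 and Psmb9 lie head to head on chromosome 17 and share 212 exon bases on opposite strands, and the strand setting of the counting is not stated.

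Among the transcription regulators, Irf1 and Nlrc5 went opposite ways. Irf1, a factor induced by interferon gamma that binds class I and Tap1 promoters, stood at 48.3 CPM in the WT and 17.6 CPM in the S89G-DMP1 library, a log2 ratio of -1.45 (-1.67 to -1.24). Nlrc5, the class I transactivator, stood at 5.13 CPM and 10.8 CPM (65 and 155 counts), a log2 ratio of 1.05 (0.64 to 1.51). The gene for the class I transactivator was thus higher in the library where the class I chains were lower. Irf9, a DNA-binding interferon regulatory factor, was at 0.47 (0.29 to 0.65) and shares 123 exon bases with its neighbour Rnf31 on the same strand, and Stat2, a signal transducer that binds it, at -0.21 and 0.08 on the 2 scales. Irf7, which drives secondary interferon production, had 115 and 127 counts and an interval that held 0 (-0.42 to 0.33).

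The 3 RNA sensing genes were all within 2-fold. Ddx58, which encodes the RIG-I sensor of viral RNA ends, was at -0.47 (-0.58 to -0.35) from 1434 and 1181 counts. Ifih1, which encodes the MDA5 sensor of long double-stranded RNA, was at 0.12 (-0.08 to 0.32), and Trim25, the ubiquitin ligase that acts on RIG-I, was at -0.04 (-0.17 to 0.10). Within the IFIT family of RNA-binding antiviral proteins, whose genes lie side by side on chromosome 19, the ratios spread widely. Ifit3 stood at 68.8 CPM in the WT and 32.7 CPM in the S89G-DMP1 library, a log2 ratio of -1.07 (-1.24 to -0.91). On library size alone Ifit3 was at -0.78, short of 2-fold. Ifit1 was at -0.68 (-0.95 to -0.43) and Ifit2 at 0.38 (0.20 to 0.57), on the other side of 0. Ifit3 has a close copy, Ifit3b, that can share its reads. Isg15, a ubiquitin-like protein joined to many targets, was at -0.38, and Usp18, the protease that removes it, at 0.02. Of the OAS family, Oas1a, an enzyme that makes the activator of RNase L, was at -0.11 from 56 and 59 counts, and Oasl2, a relative of Oas1a, was at -0.74 (-0.94 to -0.55).

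The widest ratios of the module were among the interferon-inducible GTPases, which attack the vacuoles of intracellular microbes. Irgm1, an immunity-related GTPase that controls the others of its family, stood at 368 CPM in the WT and 44.0 CPM in the S89G-DMP1 library (4663 and 633 counts), a log2 ratio of -3.06 (-3.19 to -2.95), or 8.35-fold lower. Gbp2, a guanylate-binding protein, stood at 58.8 CPM and 14.7 CPM, a log2 ratio of -1.99 (-2.22 to -1.78). Gbp3, its neighbour on chromosome 3, stood at 26.1 CPM and 9.51 CPM, a log2 ratio of -1.44 (-1.75 to -1.16). These 3 kept at least a 2-fold difference on library size alone, at -2.77, -1.70 and -1.15. Gbp7, from the same cluster on chromosome 3, was at -0.04 (-0.35 to 0.27), and Igtp was at 0.28 (-0.05 to 0.62), so the family did not move as 1 block. Igtp and its neighbour Irgm2 share 162 exon bases on the same strand, so reads there could be given to either.

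The other induced effectors were within 2-fold. Of the 8, 7 were lower on the TMM scale and 6 on library size alone, with Ifi27 (-0.89), Parp14 (-0.80) and Bst2 (-0.67) the farthest from 0. Bst2 encodes tetherin, which holds budding virus at the surface, and Parp14 encodes an ADP-ribosyltransferase. Ifitm3, which blocks virus entry through endosomes, was at -0.40 from 4316 and 3717 counts. Rsad2, which encodes the antiviral enzyme viperin, had 17 and 37 counts and was at 0.87 (0.07 to 1.86), and reached 1.14 on library size alone.

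Cell type markers differed between these libraries beside the module. Over the 14 microglia and macrophage markers the summed level was 1033 CPM in the WT and 1401 CPM in the S89G-DMP1 library, with none at 0, so this list was higher where most module genes were lower. Of these markers 12 were higher and 2 lower in the S89G-DMP1 library, while all 8 fibroblast markers were lower and 8 of the 10 astrocyte markers higher. Over 10 endothelial markers the sums were 238 CPM and 130 CPM, with 3 higher, 6 lower and Cldn5 at 0 in both, but Cdh5 alone went from 151 to 1.60 CPM and the rest summed to 86.6 and 129 CPM. Over 8 mural markers the sums were 1949 CPM and 2729 CPM, with 2 higher, 5 lower and Kcnj8 at 0 in both, but Acta2 alone went from 723 to 2468 CPM and the rest summed to 1226 and 262 CPM. Neither the endothelial nor the mural list thus had 1 direction. The part of these cell types in the module's ratios was not tested, and with 1 library each it cannot be told apart from genotype.

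Outside the 38 members, 153 other genes of the pathway were followed in 4 lists. In the astrocyte pair 140 had enough counts, 36 (25.7%) were lower and 9 (6.43%) higher by 2-fold or more, against 12.8% and 17.3% of all genes, and their median log2 ratio was -0.39. On library size alone these were 26, 15 and -0.10, with 9.66% of all genes lower and 22.2% higher. Relative to the median gene 36 were at least 2-fold lower on either scale, with 9 higher on the TMM scale and 8 on library size. The match at 36 again follows from the arithmetic and is no check. Of 16 interferon receptors and kinases, 2 were at least 2-fold lower, Jak1 (-1.06), a kinase bound to interferon receptors, and the phosphatase Ptpn11 (-1.18), while Socs1, a feedback inhibitor of the receptors, was at -0.91 and the kinase Jak2 at -0.73. None of the 16 was past 2-fold on library size alone. Of 20 sensing and induction genes, 4 were lower and 2 higher, and 3 and 2 on library size alone. Among them were Tlr4 (-2.35), the receptor for bacterial lipopolysaccharide, the nucleic acid sensors Zbp1 (-2.03) and Dhx58 (-1.32), and Irf8 (1.44), a factor of myeloid cells.

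Of 75 other interferon-induced genes with enough counts, 24 were at least 2-fold lower and 5 higher, against 12.8% and 17.3% of all genes. On library size alone 17 of these genes were lower and 10 higher, against 9.66% and 22.2% of all genes. Among those with at least 50 counts in 1 of the libraries, the 4 farthest from 0 were Tgtp2 (117 and 8 counts, -3.74), Sp100 (618 and 51 counts, -3.73), Ifi47 (362 and 37 counts, -3.403) and Tgtp1 (72 and 8 counts, -3.05). Ifi47, Tgtp1 and Tgtp2 encode immunity-related GTPases like Irgm1, and Sp100 encodes a nuclear body protein. Tgtp1 and Tgtp2 are near-identical copies, so their separate counts are uncertain. Of 29 other antigen presentation genes, 6 were lower and 2 higher, and 6 and 3 on library size alone. Cd74 (140 and 32 counts, -2.24), the invariant chain of class II molecules, and H2-DMb1 (156 and 37 counts, -2.20), which loads class II peptides, were lower, as was the class I-like Mr1 (1114 and 307 counts, -2.04). Rfxap (98 and 344 counts, 1.61), a subunit of the factor that binds MHC promoters, was higher.

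B2m and Ifitm3 led the module by deposited FPKM in the astrocytes and by CPM per kilobase of annotated exon in the WT NSCs. These measures use different gene lengths, so the order of members depends on the length used. In the WT astrocyte library H2-K1 stood at 184 FPKM but at 77.7 CPM per kilobase of annotated exon. The NSC order was not computed on the lengths behind the FPKM. In the WT astrocyte library the deposited FPKM values (fragments scaled by transcript length and sequencing depth) were highest for B2m (1099), Ifitm3 (454), H2-D1 (274), H2-K1 (184) and Ifi27 (162), and lowest for Rsad2 (0.434). In the S89G-DMP1 library the order began with B2m (565), Ifitm3 (421), H2-D1 (117), Tapbp (116) and Ifi27 (106). Irgm1 was sixth in the WT library at 137 FPKM and twelfth in the S89G-DMP1 library at 19.97 FPKM. The 4 class I chains took 44.9% of the members' counts in the WT and 35.1% in the S89G-DMP1 library.

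In the WT NSCs, per kilobase of annotated exon, B2m led at 40.8 ± 9.73 CPM per kb (SD, n = 3), followed by Ifitm3 at 16.4 ± 0.569, H2-K1 at 14.9 ± 0.891, Psmb10 at 11.0 ± 1.02 and H2-D1 at 7.95 ± 1.19. Of the 17 neighbouring pairs in the order of the 18 best-counted members, 8 had overlapping ranges over the 3 libraries, so those neighbours were not separated beyond their spread. The tables of both cell types were made separately, and their levels are set side by side with no test.

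**Figure D2:**
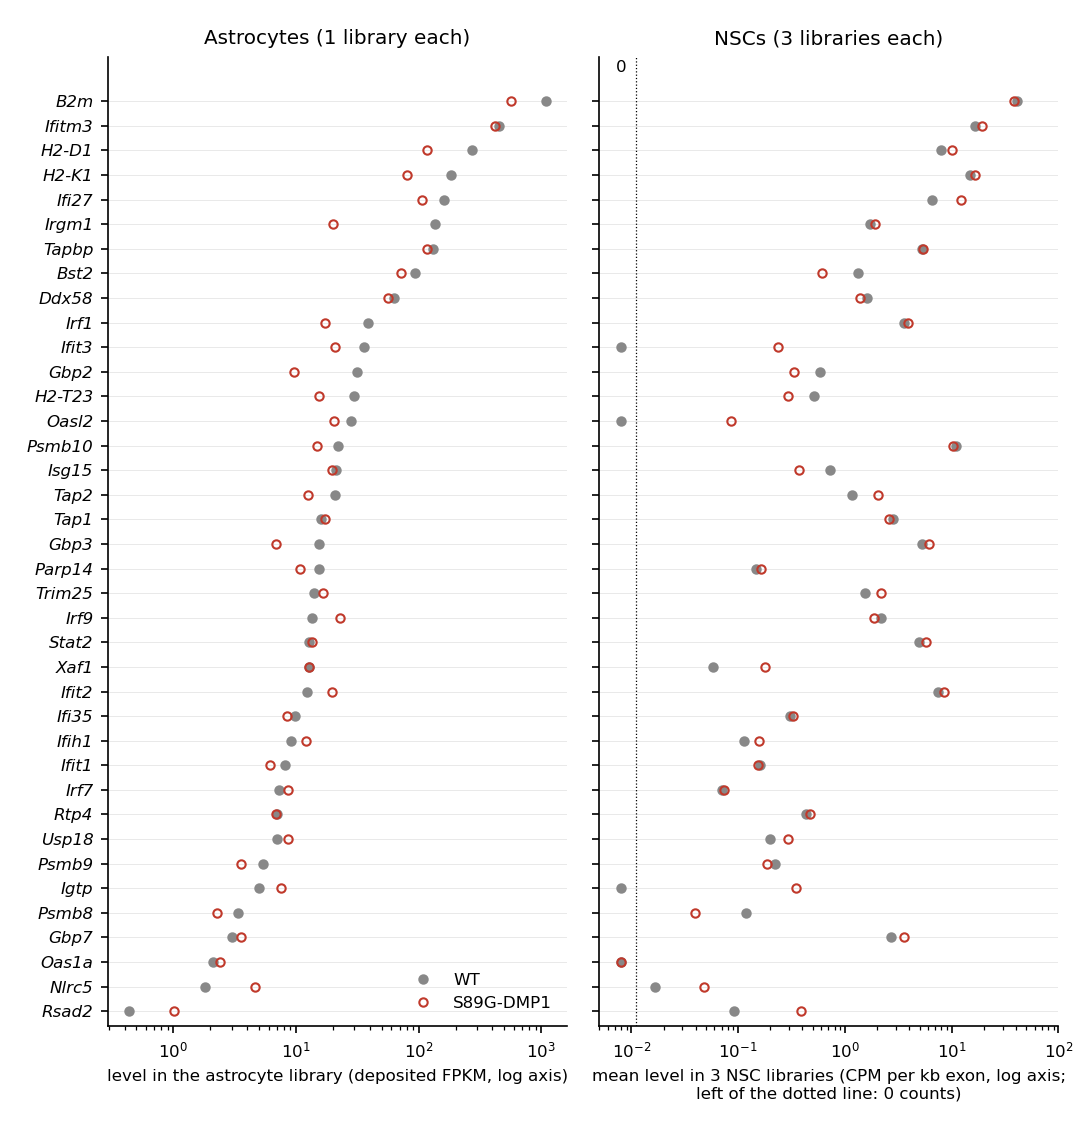
Levels per length of the 38 members, ordered by the WT astrocyte library, on log axes. Left, deposited FPKM of the WT (filled) and S89G-DMP1 (open) astrocyte library. Right, mean CPM per kilobase of exon over 3 WT and 3 S89G-DMP1 NSC libraries, with members at 0 counts left of the dotted line. B2m leads both panels at 1099 FPKM and 40.8 CPM per kb in the WT libraries, and Oas1a is at 0 in the NSCs.

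In the NSCs the module was low, and 1 member was called by edgeR, a share below that of all genes. This was Ifi27, an interferon-induced protein of mitochondrial and nuclear membranes, called higher in the S89G-DMP1 NSCs by edgeR but not by DESeq2 or limma. Of the 38 members, 18 passed edgeR's filter on low counts and 20 did not. In edgeR's quasi-likelihood test, adjusted over 11194 genes by the Benjamini-Hochberg method, 1 of the 18 (5.56%) was called higher, against 7.08% of all genes. None was called lower, against 8.76% of all genes, and none was called lower by DESeq2 or by limma on the deposited TPM. At an unadjusted p under 0.05 stood 4 members (22.2%), all higher (Tap2, Trim25, Gbp7 and Ifi27), against 27.8% of all genes. The median log2 fold change was 0.18 over the 18 and 0.00256 over all genes, with 13 above 0 and 5 below it.

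Ifi27, on chromosome 12, was counted 23, 28 and 20 times in WT and 37, 45 and 47 times in S89G-DMP1 NSCs. Its level was 9.69, 10.9 and 7.99 CPM in WT replicates 1, 2 and 3 and 15.6, 19.3 and 18.9 CPM in S89G-DMP1 replicates 1, 2 and 3. Every S89G-DMP1 library thus stood above every WT library. The mean rose from 9.52 ± 1.45 CPM to 17.9 ± 2.01 CPM (SD, n = 3 each), a log2 fold change of 0.91 (SE 0.21, adjusted p = 0.000879, edgeR's quasi-likelihood test). The exact two-sided permutation p was 0.1, the smallest that 3 against 3 libraries allow. Over 15 alternative settings the adjusted p ranged from 0.000412 to 0.126 and 12 kept the call. DESeq2 (adjusted p = 0.0538) and limma on log2(TPM + 1) or log2(TPM + 0.1) of the deposited TPM (adjusted p = 0.126 and 0.122) did not make it, with log2 fold changes of 0.91, 0.77 and 0.79.

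**Figure D3:**
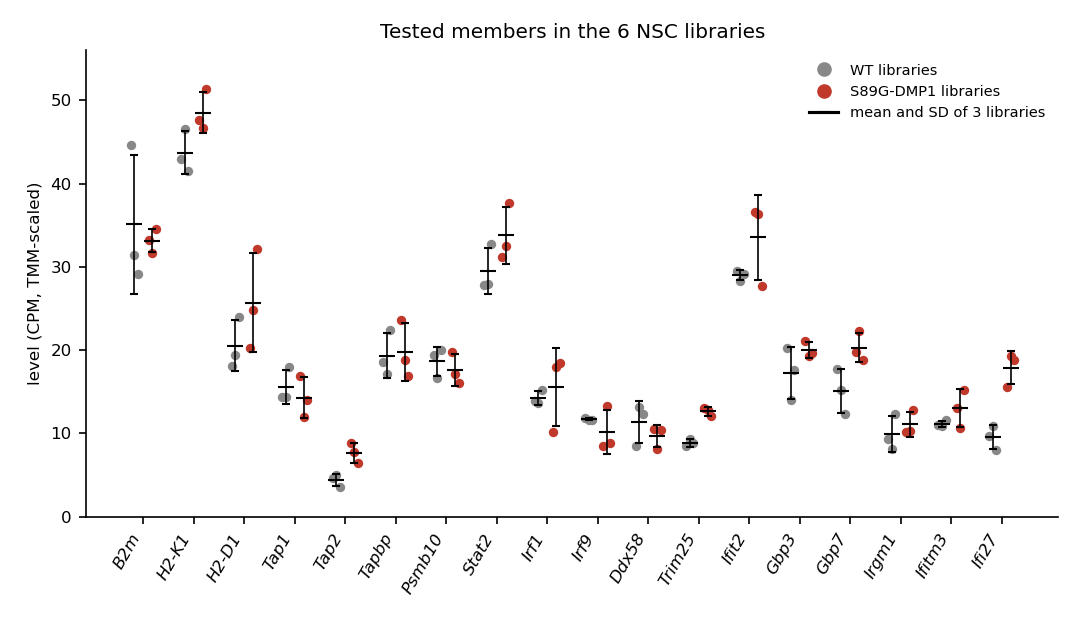
Level of the 18 tested members in each NSC library (CPM, TMM-scaled), with 3 WT (grey) and 3 S89G-DMP1 (red) libraries. Bars are the mean and SD of 3 libraries. Ifi27 moves from 9.52 to 17.9 CPM, and for most other members the groups overlap.

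On the TMM scale every S89G-DMP1 library stood above every WT library in H2-K1, Tap2, Trim25, Gbp7 and Ifi27. These were 5 of the 18 (27.8%), against 14.8% of all tested genes. In none did every S89G-DMP1 library stand below, against 16% of all. Without the TMM factors the replicate 2 libraries of H2-K1 change order, so its groups then overlap. Tap2 was at 4.64, 5.05 and 3.59 CPM in the WT and 8.85, 7.70 and 6.42 CPM in the S89G-DMP1 libraries, a log2 fold change of 0.78 (SE 0.31) that missed the threshold at an adjusted p of 0.0755 by edgeR's quasi-likelihood test. Its counts were few, from 9 to 21 per library. Trim25 was at 8.43, 9.32 and 8.79 CPM and at 13.1, 12.8 and 12.03 CPM, and Gbp7 at 17.7, 15.2 and 12.4 CPM and at 19.8, 22.3 and 18.9 CPM. Their log2 fold changes were 0.51 (adjusted p = 0.123) and 0.43 (adjusted p = 0.1004), both short of the threshold in edgeR's test.

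The class I chains differed little in the NSCs. B2m was at 44.7, 31.5 and 29.2 CPM in the WT and 33.3, 31.7 and 34.5 CPM in the S89G-DMP1 libraries, a log2 fold change of -0.07 with a 95% interval of -0.35 to 0.20. The WT replicate 1 library was the highest of the 6 for B2m, and without it the sign turned to 0.13. H2-K1 was at 43.0, 46.62 and 41.5 CPM in the WT and 47.6, 46.65 and 51.3 CPM in the S89G-DMP1 libraries, so that the groups barely separated at the replicate 2 libraries, with an interval of -0.08 to 0.38. H2-D1 was at 18.1, 19.4 and 23.96 CPM and at 20.2, 24.8 and 32.1 CPM, with an interval of -0.00229 to 0.66. Across the 17 members that were not called, the intervals ran from -0.70 (Ddx58) to 1.39 (Tap2), so differences within each member's own interval were not excluded.

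The other tested members were Tap1, Tapbp, Psmb10, Stat2, Irf1, Irf9, Ddx58, Ifit2, Gbp3, Irgm1 and Ifitm3. Their log2 fold changes ran from -0.23 (Ddx58) to 0.23 (Ifitm3), and in each the groups overlapped. The transcription regulators Stat2, Irf1 and Irf9 were at 0.20, 0.13 and -0.20, and the GTPases Gbp3 and Irgm1 at 0.22 and 0.16. The signs of Tapbp, Irf1 and Irgm1 turned under limma on the deposited TPM, and those of Tapbp and Irf1 also when 1 library was left out, so no direction is given for them. Summed over the 18 members the level was 330, 314 and 330 CPM in the WT and 360, 362 and 372 CPM in the S89G-DMP1 libraries, given as a description of the genes that passed the filter.

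The remaining 20 members were close to absent from the NSC counts. They summed to between 27 and 42 counts per library over all 20, and none exceeded 6 counts in any library. They include H2-T23, the immunoproteasome genes Psmb8 and Psmb9, the transactivator Nlrc5, Irf7, Ifih1, Ifit1, Ifit3, Isg15, Usp18, both OAS genes, Gbp2, Igtp, Bst2, Rsad2, Xaf1, Ifi35, Parp14 and Rtp4. Oas1a had 0 counts in all 6 libraries, which allows up to 1.16 to 1.27 CPM per library (3 counts, on library totals without the TMM factors). Rsad2 had 1, 2 and 0 counts in the WT and 5, 4 and 3 in the S89G-DMP1 libraries, and Igtp had 0, 0 and 0 against 2, 2 and 1. Bst2 went the other way, with 2, 3 and 4 counts in the WT and 2, 0 and 2 in the S89G-DMP1 libraries. All 3 were near the floor of detection and were not tested. Isg15 and Ifit1, common markers of an interferon response, were hardly counted in either genotype, with Isg15 at 2, 1 and 1 counts in the WT and 1, 1 and 0 in the S89G-DMP1 libraries, and Ifit1 at 3, 0 and 0 against 1, 0 and 2.

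Of the 14 microglia and macrophage markers, 11 to 13 were at 0 in each NSC library, Csf1r, C1qa, Tyrobp and Ptprc in all of them, and the summed level was 2.81 to 7.59 CPM. The 8 neural progenitor markers summed to 3464 to 3693 CPM in the WT and 3823 to 3894 CPM in the S89G-DMP1 NSCs. Among them the mean of Fabp7 went from 910 to 1337 CPM, while Nes (2097 to 1945 CPM), Pax6 and Msi1 were lower. The 10 astrocyte markers summed to 1699 to 1747 CPM in the WT and 2213 to 2249 CPM in the S89G-DMP1 NSCs, higher in the same libraries as Ifi27. In that list the mean of Aldh1l1 alone went from 307 to 629 CPM. The part of the astrocyte markers in the Ifi27 difference was not tested.

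Of the 153 other pathway genes, 67 were tested in the NSCs. Tor3a, an interferon-induced ATPase of the endoplasmic reticulum, rose, and Ifnar1, Tbk1, Ifitm2 and Nmi fell, so 1 (1.49%) was called higher and 4 (5.97%) lower, against 7.08% and 8.76% of all genes tested. Tor3a was at 16.9, 11.7 and 14.4 CPM in the WT and 30.3, 26.96 and 36.1 CPM in the S89G-DMP1 libraries, a log2 fold change of 1.13 (SE 0.17, adjusted p = 4.21e-07, edgeR's quasi-likelihood test). Ifnar1, a subunit of the type I interferon receptor, was at 147, 156 and 149 CPM and at 118, 122 and 114 CPM, a log2 fold change of -0.36 (SE 0.07, adjusted p = 0.000189). In both genes the WT and S89G-DMP1 libraries did not overlap, as in 14.8% (higher) and 16% (lower) of all tested genes. DESeq2 called both, and neither limma fit called either. Ifnar1 was also not called against a 1.2-fold threshold.

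Tbk1, the kinase that activates the interferon-inducing factor Irf3, was at 45.5, 48.9 and 41.1 CPM in the WT and 39.2, 28.7 and 35.7 CPM in the S89G-DMP1 libraries, a log2 fold change of -0.39 (adjusted p = 0.0248). Ifitm2, a relative of Ifitm3, was at 24.9, 29.1 and 22.8 CPM and at 17.7, 16.7 and 19.7 CPM, a log2 fold change of -0.51 (adjusted p = 0.0241). Nmi, a partner of STAT proteins, was at 5.48, 9.32 and 5.99 CPM and at 3.79, 3.85 and 3.21 CPM, a log2 fold change of -0.94 (adjusted p = 0.0437). These 3 genes were called by edgeR's quasi-likelihood test and not by DESeq2, and without WT replicate 2 only 1 pathway gene was called lower. By list, edgeR called lower 1 of 11 receptors and kinases and 1 of 12 sensing and induction genes. Of 27 other interferon-induced genes 1 was called higher and 2 lower. None of 17 other antigen presentation genes was called by edgeR or DESeq2, and 3 had an unadjusted p under 0.05 in edgeR's test. Of all genes tested, edgeR called 7.08% higher and 8.76% lower, and 27.8% had an unadjusted p under 0.05.

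Set side by side, 12 of the 18 members tested in the NSCs were above 0 there and below 0 in the astrocyte pair, 4 were below 0 in both (B2m, Tap1, Psmb10 and Ddx58), Ifit2 was above 0 in both, and Irf9 was below 0 in the NSCs and above it in the astrocytes. Of 11008 genes measured in both, 24.1% were above 0 in the NSCs and below 0 in the astrocytes, against 66.7% of the 18. On library size alone the share was 14.0% and 9 of the 18, since Stat2, Trim25 and Gbp7 then lay above 0 in the astrocytes. The 12 also include Tapbp, Irf1 and Irgm1, whose NSC sign turned under other settings, and 11 of the 12 were not called in the NSCs. Of the 4 below 0 in both, B2m turned sign in the NSCs without WT replicate 1. Tap1 lay above 0 in the astrocytes on library size alone. Irgm1 was at 0.16 in the NSCs and -3.06 in the astrocytes, H2-D1 at 0.33 and -1.52, and Ifi27 at 0.91 and -0.89. Of the pathway genes called in the NSCs, Ifnar1 was at -0.36 there and 0.11 in the astrocytes (0.40 on library size alone), and Tor3a at 1.13 and -0.28 (0.01 on library size alone). The differences between cell types were not tested, since the astrocyte pair has no replicates.

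**Figure D4:**
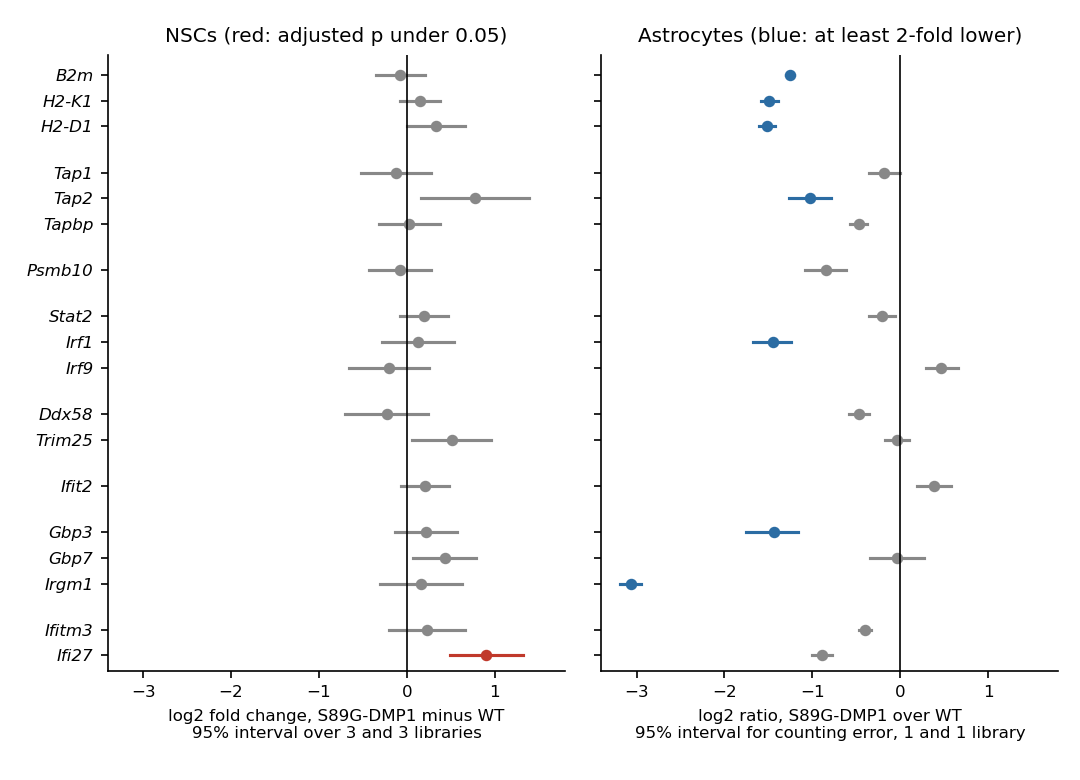
Difference between S89G-DMP1 and WT for the 18 members tested in the NSCs, on the log2 scale. Left, edgeR's fold change with its 95% interval over 3 and 3 libraries. Right, the astrocyte ratio with its 95% interval for counting error, 1 and 1 library. The NSC values lie between -0.23 and 0.91, and the astrocyte values between -3.06 and 0.47.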

How the data were processed

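RNA was sequenced from 2 astrocyte and 6 NSC libraries. For both cell types the authors deposited read counts per gene, with FPKM beside the astrocyte counts and TPM beside the NSC counts. The submitters' processing notes name TopHat2 2.0.9, Bowtie2 2.0.6, HISAT2, StringTie and featureCounts. The labels give GRCm38 for the NSCs, while the astrocyte build and counter and the strand setting are not given in the sources used here.

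Low NSC counts were removed by filterByExpr, library totals were adjusted by TMM, and genotypes were compared with edgeR 4.0.16 (quasi-likelihood test, R 4.3.3) on 3 against 3 libraries, with Benjamini-Hochberg adjustment over all genes tested and a call at an adjusted p under 0.05. Astrocyte values are S89G-DMP1 to WT ratios of CPM on the TMM scale, as log2, after adding a prior count of 2. Genes that reached 10 counts in 1 of the libraries or both were kept, and no test was run. Intervals for counting error are exact binomial (95%), and floors are 3 counts. They cover counting error only, since reads without molecular identifiers are not independent molecules. DESeq2 1.42.0 and limma 3.58.1, on log2 of the deposited TPM plus 1 or 0.1, were alternatives, as were other scalings, filters and left-out libraries. The test was checked on simulated counts.

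Members at least 2-fold apart in the astrocytes or called in the NSCs were described in every library. Of each pathway list at most the 4 largest called NSC changes and the 4 largest astrocyte ratios that reached 50 counts were named. The members and lists were chosen with earlier results of these data known. Promoters were from RefSeq. Over genes, chi-square per degree of freedom was 1.07 to 1.51 between NSC libraries of the same genotype and 3.17 to 4.06 between genotypes, and no library was a copy of another. Within a genotype the spread was thus little above counting error, so the NSC p-values may not cover spread between mice.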

Additional observations from a re-analysis of the deposited data

Results flagged for a closer look

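In 3 members, every S89G-DMP1 NSC library stood above every WT NSC library on the TMM scale. In the same members the S89G-DMP1 astrocyte library stood below the WT astrocyte library on both scales. The 3 were 16.7% of the 18 tested members, against 3.53% of the 11008 genes measured in both cell types. For H2-K1 the NSC groups separated by only 46.65 against 46.62 CPM in the replicate 2 libraries. Without the TMM factors they overlap. H2-K1 was at 0.15 in the NSCs and -1.49 in the astrocytes, Tap2 at 0.78 and -1.02, and Ifi27 at 0.91 and -0.89 (log2, S89G-DMP1 to WT). The difference between cell types was not tested, because the astrocyte pair has 1 library per genotype. Only Ifi27 passed the threshold in the NSCs by edgeR's quasi-likelihood test (adjusted p = 0.000879, range over 15 alternatives 0.000412 to 0.126).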

How the results depend on the processing

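In the NSCs, 1 member was called higher in every fit that left out 1 library (1 to 1), and 0 under DESeq2 and under limma on log2(TPM + 1) or log2(TPM + 0.1). Pathway genes called lower numbered 1 under DESeq2, 0 under either limma fit, 0 against a 1.2-fold threshold (glmTreat) and 1 to 4 with 1 library left out (2 without S89G-DMP1 replicate 2, 1 without WT replicate 2). Pathway genes called higher numbered 2 without the filter, 0 under either limma fit and 1 to 2 with 1 library left out (2 without WT replicate 1). The cause of these shifts was not tested. The median of the tested members stayed between 0.10 and 0.22. Reversed signs, all in members not called, were Tapbp (-0.12 and -0.06 without S89G-DMP1 replicate 1 or WT replicate 2, -0.12 in both limma fits), Irf1 (-0.023 without S89G-DMP1 replicate 3, -0.24 and -0.25 in the limma fits), B2m (0.13 without WT replicate 1) and Irgm1 (-0.82 and -1.35 in the limma fits). Left-out ranges were -0.12 to 0.15 for Tapbp, -0.02 to 0.36 for Irf1 and -0.19 to 0.13 for B2m.

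Replicate numbers did not pair the NSC libraries, since same-numbered libraries correlated at 0.05, 0.01 and 0.00 in their deviations. With a replicate block 1 member was called higher and 0 lower, the median was 0.18, and 1 pathway gene was called higher and 3 lower.

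In the astrocytes, library size alone and log2(FPKM + 0.1) both gave 2 members at least 2-fold higher, 6 lower and a median of -0.20, and log2(FPKM + 1) gave 6 lower and a median of -0.19. At 1.5-fold these were 2 higher and 18 lower, and at 4-fold 0 and 1. In the NSC libraries, 20 of the 38 members did not pass the filter on low counts.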
